A study of Mus musculus with 3 samples.

Results

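The regions described here are 510 peaks of the transcription factor FOXA2 that lay within 10 kb, edge to edge, of a region called in input chromatin. They were chosen by position from the 9338 FOXA2 peaks of the series, so their closeness to input is the rule and not a result. They made up 5.46% of the FOXA2 list (95% Wilson interval 5.02 to 5.94%; this and the other intervals cover counting error only). Chromatin immunoprecipitation with sequencing was done on cells of wild-type C57BL/6 embryos at day 14.5, sorted on magnetic beads for the surface protein DLK1, which marks hepatoblasts, the liver progenitors. Livers were pooled, and 1 library was made with an antibody to FOXA2, 1 with an antibody to HNF4A and 1 from input chromatin, so no value has a replicate and no difference below was tested. The lists held 11703 HNF4A peaks and 1263 input regions. The files hold peaks and no expression values, so the cell type was not checked against its markers.

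FOXA2 belongs to the forkhead family, binds DNA even where it is wrapped on nucleosomes, and helps to open the enhancers of endoderm and liver genes. HNF4A is a nuclear receptor that binds many of the same liver enhancers. Input is sheared chromatin that is sequenced without an antibody. It should be nearly flat, and it rises where many genomic copies of a sequence are placed on few copies in the assembly, as in satellite DNA, tandem arrays and recent segmental duplications, or where chromatin shears easily. For this reason input libraries serve as the background against which peaks of a factor are read.

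None of the 9338 FOXA2 peaks overlapped an input region. Of the HNF4A peaks 2 did, and both were mitochondrial, which left 0 nuclear ones. No source used here states whether overlapping regions were removed before deposit, so the absence of overlap is a property of the lists as they are. Any HNF4A or FOXA2 signal inside an input region is therefore not seen here, and HNF4A overlap below can only be read outside those regions.

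The peaks beside input were packed into few places. Joined at gaps of 100 kb or less, they formed 96 blocks that spanned 3.73 Mb together, and 74 of these were on autosomes. A single member made up 35 blocks, 26 blocks held 5 or more members (384 peaks), and 12 blocks held 10 or more (293 peaks). The 10 fullest blocks held 272 members, 53.3% of the total (49 to 57.6%), in 2.05 Mb. These 10 blocks also held 482 input regions within them or their 10 kb flanks, 33 further FOXA2 peaks that lay too far from input to be members, and 10 HNF4A peaks. Members stood at 13.3 per 100 kb there, and HNF4A peaks at 0.488 per 100 kb. The density of HNF4A peaks over the genome was not computed, so no shortage of them in these blocks is shown.

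**Figure D1:**
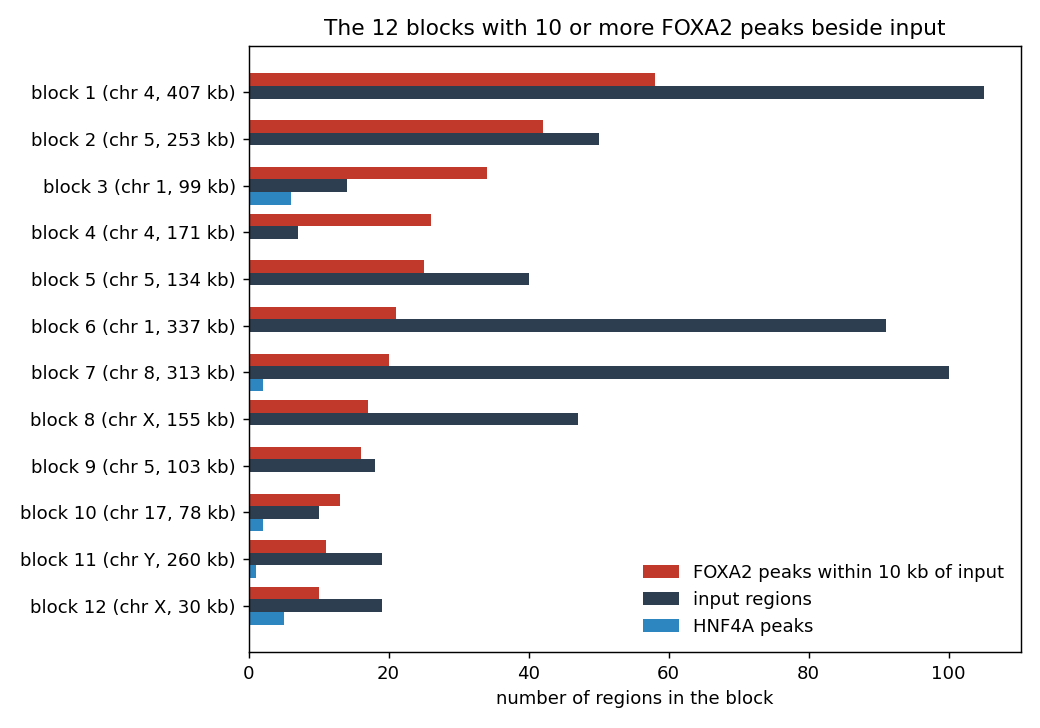
Number of FOXA2 peaks within 10 kb of input (red), of input regions (dark) and of HNF4A peaks (blue) on the horizontal axis, for each of the 12 blocks with 10 or more such FOXA2 peaks, named by rank, chromosome and span. Block 1 has 58 FOXA2 peaks beside 105 input regions, while block 4 has 26 beside only 7.

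Block 1, the fullest, lay on chromosome 4 at 145056495 to 145463242 (mm9, as for all positions here). It held 58 members, 11.4% of the total, over 407 kb, with 105 input regions and no HNF4A peak. Its members had scores of 11 to 28 with a median of 12, and 18 of them, 31%, were wider than 1 kb. The score is the authors' own whole number for each region; none of the sources used here defines it, and the lowest score in the FOXA2 list is 11. The highest-scoring member of the block, at 145316564 to 145317707 (score 28), was 1144 bp wide and 5018 bp from input. The highest input region of block 1, at 145367936 to 145369421, had a score of 27. Members and input regions here covered 49.8 and 112 kb.

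Block 2, on chromosome 5 at 93885959 to 94138497, held 42 members and 50 input regions in 253 kb. Block 5 followed on the same chromosome at 94286398 to 94420853, with 25 members and 40 input regions in 134 kb. Neither held an HNF4A peak. Median member width was 691 bp in block 2 and 632 bp in block 5, and median score was 12 and 13. The highest member of block 2 was at 93962548 to 93963834 (score 24), 269 bp from input, and its highest input region was at 93957825 to 93958150 (score 21). In block 5 these were the member at 94358858 to 94359148 (score 16) and the input region at 94350437 to 94351498 (score 22). Input regions run without a gap of over 100 kb through both blocks, from 93882355 to 94422592 on chromosome 5, and members nearest to that run numbered 67.

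Blocks 3 and 4 were rich in FOXA2 peaks and poor in input regions. Block 3, on chromosome 1 at 90108083 to 90206884, held 34 members beside 14 input regions in 98.8 kb, or 34.4 members per 100 kb. It also held 6 HNF4A peaks, and 3 of its members overlapped HNF4A. Block 4, on chromosome 4 at 41723375 to 41894774, held 26 members beside 7 input regions in 171 kb, and no HNF4A peak. Input regions per member were thus 0.412 and 0.269, the lowest among the 10 fullest blocks. A further 6 FOXA2 peaks in block 3 and 10 in block 4 lay within the span but over 10 kb from input. The highest member of block 3 was at 90110458 to 90111393 (score 23), beside input regions that reached a score of 17 at 90117324 to 90118574. The highest member of block 4, at 41750635 to 41751045, had a score of 38, the third highest of all 510. Its input regions had scores of 13 to 15, with the highest at 41877095 to 41877489.

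Blocks 6 and 7 showed the opposite balance. Block 6, on chromosome 1 at 84990186 to 85327094, held 21 members beside 91 input regions in 337 kb, 4.33 input regions per member. Block 7, on chromosome 8 at 19669719 to 19982598, held 20 members beside 100 input regions in 313 kb, or 5 per member. Block 7 also held 2 HNF4A peaks, and block 6 held none. Members of block 6 had the lowest median width among the 10 fullest blocks, 446 bp, with none over 1 kb. Their highest score was 18, at 85068399 to 85068801. The highest input score in the block, given on the scale of the input list, was 38 at 85089923 to 85092757. The highest member of block 7, at 19745575 to 19747553 (score 25), was 1979 bp wide, and the highest input region there, at 19755468 to 19760084, had a score of 56 and a width of 4617 bp.

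Blocks 8 to 10 held fewer members. Block 8, on chromosome X at 120274718 to 120429891, had 17 members with scores of 11 to 16 and 47 input regions. Its highest member lay at 120330746 to 120331308, and its highest input region at 120271894 to 120272871 had a score of 35. Block 9, on chromosome 5 at 14903255 to 15006518, had 16 members and 18 input regions; its highest member was at 14903578 to 14904072 (score 27) and its highest input region at 14915949 to 14916780 (score 28). Block 10, on chromosome 17 at 3006470 to 3084641, had 13 members, 10 input regions and 2 HNF4A peaks. Its median member score of 15 was the highest among the 10 fullest blocks. Its highest member was at 3035804 to 3036869 (score 20), and its highest input region at 3010063 to 3010436 (score 22).

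**Figure D2:**
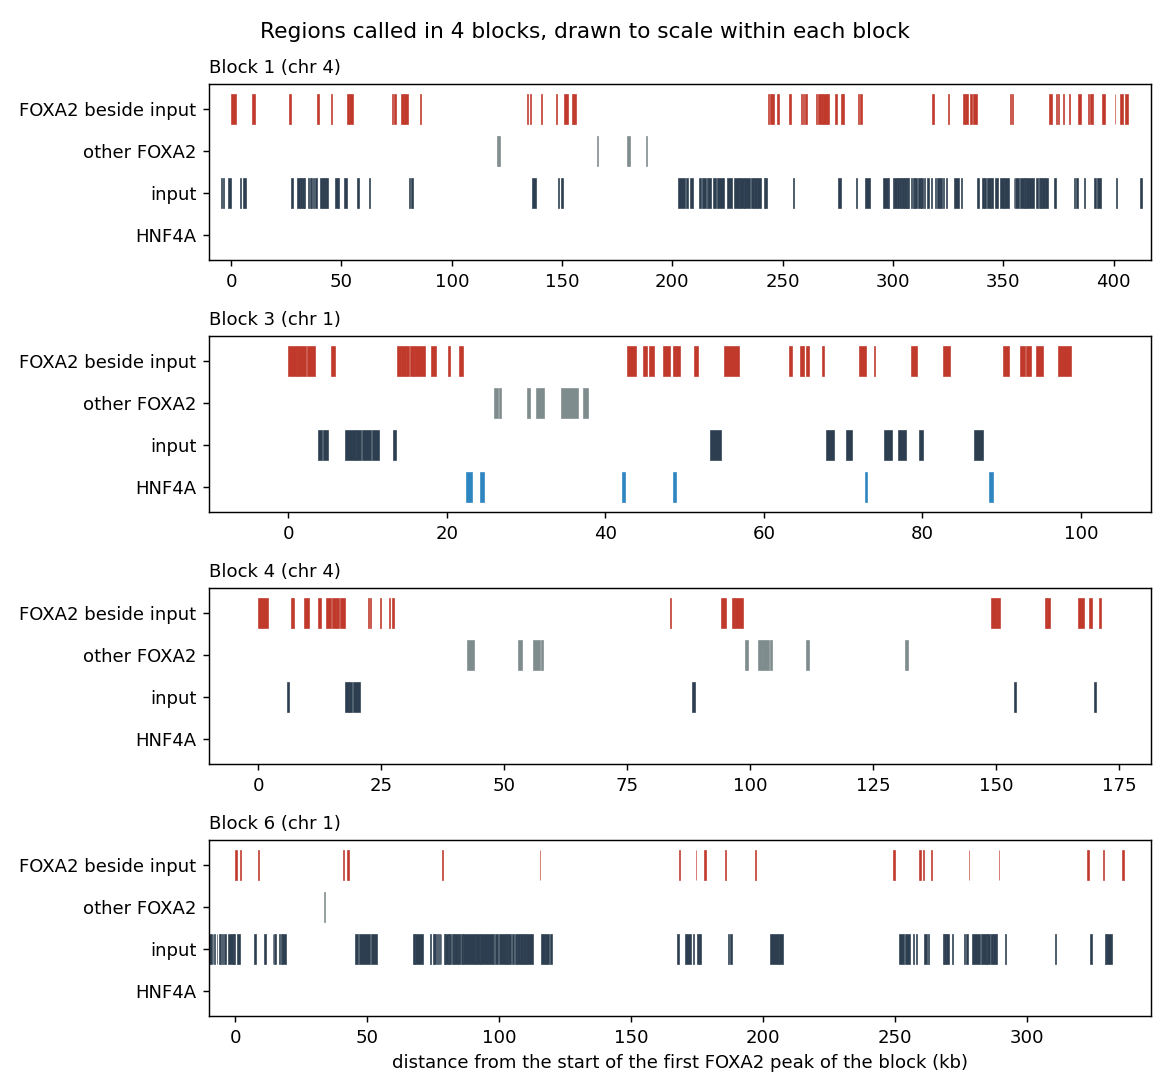
Position of every called region in blocks 1, 3, 4 and 6, in kb from the first FOXA2 peak of the block, with rows for FOXA2 peaks beside input, other FOXA2 peaks, input regions and HNF4A peaks. FOXA2 peaks sit between and around the input regions without overlapping them; block 3 has 34 members and 14 input regions, and block 6 has 21 and 91.

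The smaller blocks had the same profile as the full ones, and single peaks came nearer to the rest of the list. Median width was 602 bp in blocks of 10 or more members, 631 bp in blocks of 5 to 9 (91 peaks in 14 blocks), 586 bp in blocks of 2 to 4 (91 peaks in 35 blocks) and 424 bp in the 35 single-member blocks. Median scores were 13, 13, 12 and 13. Among the 26 blocks of 5 or more members the median width ran from 404.5 to 1064 bp, and in 26 of 26 it was above the 364 bp of the other FOXA2 peaks. The block medians of score ran from 11 to 15, at or below the median of 15 of the other peaks in all 26 blocks. The widest block median belonged to a run of 5 peaks on chromosome 5 at 26324412 to 26333311. It contains the widest FOXA2 peak of the whole list, 26325681 to 26328535, which was 2855 bp wide with a score of 18. Another run of 5 peaks, on chromosome 7 at 58195506 to 58202723, held 4 peaks that stood 4 to 15 bp from their nearest FOXA2 peak and 1 more, at 58202093 to 58202723, that stood 3272 bp from its nearest.

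Members lay on 19 chromosomes. Chromosomes 4, 5, X and 1 held 110, 102, 73 and 64 of them, 68.4% together (64.3 to 72.3%), against 21.4% of the other FOXA2 peaks (20.5 to 22.3%). On chromosome Y 23 of 28 FOXA2 peaks were members, 82.1% (64.4 to 92.1%), and on X 73 of 215, 34% (28 to 40.5%). The share was 16.7% on chromosome 4, 15.6% on chromosome 5 and 9.01% on chromosome 1. Chromosomes 9 and 15 held no member among 488 and 344 FOXA2 peaks, and chromosomes 10 and 11 held 1 each. Of all members 18.8% were on X and Y (15.7 to 22.4%), against 1.67% of the other FOXA2 peaks (1.42 to 1.95%). Since input regions are unevenly spread, these shares follow in part from the rule. Of the 1263 input regions 230 were on X, 107 on Y, 149 on chromosome 1, 153 on chromosome 4 and 139 on chromosome 5. Chromosomes 9, 10, 11 and 15 had 40, 16, 50 and 6.

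Members were close to input well inside the limit of the rule. The median distance was 1536 bp (interquartile range 504 to 3902 bp), and 206 members lay within 1000 bp, 127 within 500 bp and 30 within 100 bp. The closest, on chromosome 5 at 93917310 to 93918469 (score 14), was 8 bp from an input region of score 15 at 93915597 to 93917302. The next were on chromosome X at 166416754 to 166417199 (12 bp away), chromosome 16 at 3237148 to 3237632 (13 bp), chromosome 5 at 94359378 to 94359943 (17 bp) and chromosome 1 at 84990186 to 84990631 (24 bp). Their scores were 13 to 16. Input regions stood on both sides within 10 kb for 234 members, 45.9%, and on 1 side for 276. A member had a median of 3 input regions within 10 kb and at most 18, and 165 members had only 1.

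At the limit itself nothing set members apart from their neighbours. The last 5 peaks inside lay 9656 to 9953 bp from input with scores of 11 to 14 and widths of 375 to 1172 bp. The first 5 outside lay 10132 to 10485 bp away with scores of 11 to 14 and widths of 382 to 721 bp. None of these 10 peaks overlapped an HNF4A peak.

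Low scores prevailed among the peaks beside input. The median was 13 (quartiles 11 and 14) against 15 (12 and 22) for the 8828 other FOXA2 peaks. The lowest score, 11, was held by 147 members, 28.8% (25.1 to 32.9%), against 16.5% of all FOXA2 peaks and 15.8% of the others. A score of 20 or more was reached by 26 members, 5.10% (3.50 to 7.36%), against 31.2% of all FOXA2 peaks and 32.7% of the others. On autosomes the median was 13 for members and 15 for the others, but on X and Y it was 13 for both. There the lowest score was held by 27.1% of 96 members and 24.5% of 147 others. A score of 20 or more was reached by 4.17% and 15.0% of them. The highest score among members was 45 and among the others 165. Above 34, the 90th percentile of the FOXA2 list, were 4 members.

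A score of 27 or more was reached by 12 members, of which 4 tied at 27. Of these 12, 4 were alone in their block, against 35 of all 510. The highest, on chromosome 16 at 11146928 to 11147236 (score 45), was 309 bp wide, 2531 bp from input and 135296 bp from the nearest HNF4A peak. The second, on chromosome 7 at 148813848 to 148814223 (score 44), lay 9514 bp from input and overlapped an HNF4A peak of score 23. The fourth, on chromosome Y at 2878376 to 2878577 (score 35), was 202 bp wide, had 12 input regions within 10 kb and overlapped an HNF4A peak of score 33. Next came chromosome 6 at 43287500 to 43287842 (score 32) and chromosome 11 at 107066184 to 107066551 (score 29), each alone in its block and over 5 kb from input. The third is the top peak of block 4. A score of 28 was held by the top peak of block 1 and by chromosome 19 at 3214598 to 3215575, which was in a block of 3 members. The 4 tied at 27 were chromosome 4 at 41892320 to 41892840 in block 4, the top peak of block 9, and chromosome 17 at 13744084 to 13744303 and chromosome 4 at 60162056 to 60162489, each in a block of 3 members.

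Members were also broad, although low-scoring. Their median width was 592 bp (quartiles 418 and 832 bp) against 364 bp (330 and 415 bp) for the others, a ratio of 1.63. Of the members 85, or 16.7% (13.7 to 20.1%), were wider than 1 kb, against 1.68% of all FOXA2 peaks and 0.816% of the others. Put the other way, 85 of the 157 FOXA2 peaks over 1 kb, 54.1%, were beside input. On X and Y the median widths were 508 bp for members and 373 bp for the others, and 8.33% and 4.76% were wider than 1 kb. The 510 members covered 346 kb, 9.01% of the sequence under FOXA2 peaks. Besides the 2855 bp peak already named, the widest were chromosome X at 144506002 to 144508478 (2477 bp, score 14) and chromosome 4 at 145056495 to 145058686 (2192 bp, score 17). Width hardly followed score: Spearman's rho was 0.06 over the 510 members and -0.11 over the 8828 others, which all share 1 library and in part a block.

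The excess width was there at like score. At the lowest score, 11, median width was 553 bp for 147 members and 366 bp for 1395 others. At scores of 14 to 15 it was 627 bp for 106 members and 375 bp for 1217 others, and at 16 to 20 it was 582 bp for 52 members and 363 bp for 1744 others. At 21 to 30, with 18 members, the medians were 508 and 359 bp. Only the 5 members above that were as narrow as the rest, at 343 against 353 bp.

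**Figure D3:**
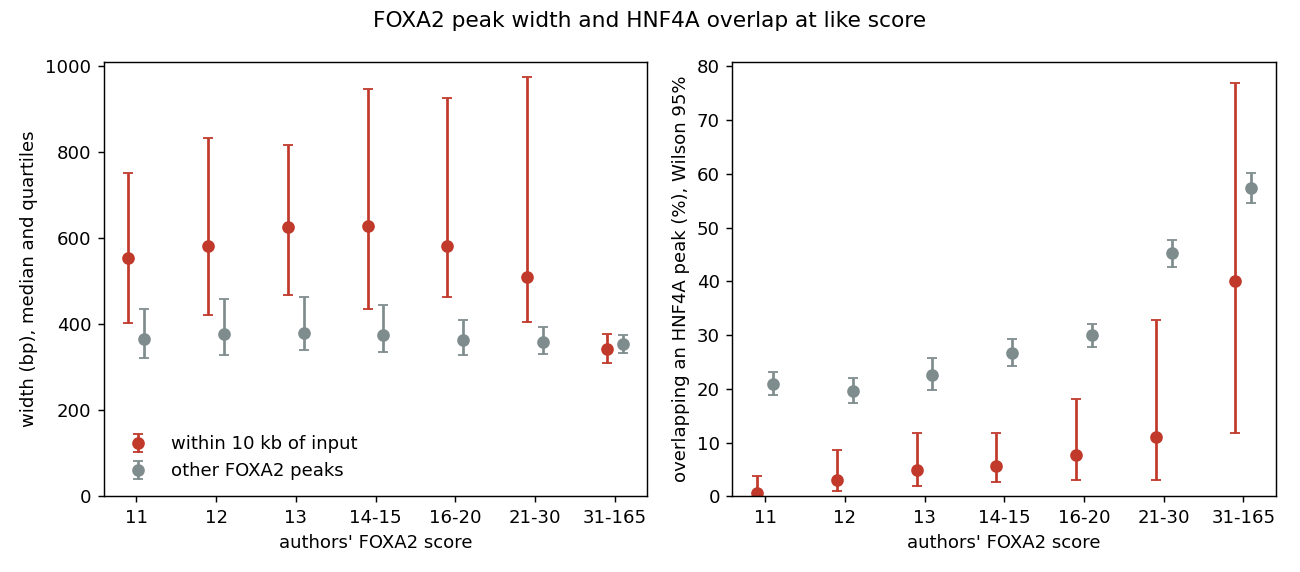
Left, FOXA2 peak width in bp (median with quartiles) and right, the share overlapping an HNF4A peak in percent (Wilson interval), both by band of the authors' FOXA2 score, for peaks within 10 kb of input (red) and other FOXA2 peaks (grey). Up to a score of 30 the red medians of width lie between 508 and 627 bp, above the grey ones of 359 to 379 bp, and the red shares lie below the grey ones.

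Members also stood close to each other. The nearest other FOXA2 peak was a median of 1.57 kb away, against 35.9 kb for the rest of the list. Another FOXA2 peak lay within 1 kb of 212 members, 41.6%, against 7.75% of all FOXA2 peaks and 5.80% of the others. In the 10 fullest blocks this held for 50.7% of members. Members were selected around clustered input regions, so part of this packing comes with the rule.

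Few members overlapped an HNF4A peak, which the rule did not use. The shares below count members, many of which lie in the same block, and do not give the density of HNF4A peaks there. An overlap of at least 1 bp was found for 22 members, 4.31% (2.87 to 6.44%), against 30.7% of all FOXA2 peaks and 32.3% (31.3 to 33.3%) of the others. The distance was long as well: 358 members, 70.2%, were over 100 kb from any HNF4A peak, against 20.0% of the others. Sharing also varied with score among the other FOXA2 peaks, from 20.9% at a score of 11 to 57.4% at 31 and above. At a score of 11, 1 of 147 members overlapped HNF4A, 0.68% (0.12 to 3.75%), against 20.9% of the others (18.9 to 23.1%). At 14 to 15 the shares were 5.66% and 26.6%, and at 16 to 20 they were 7.69% and 29.9%. At 21 to 30 they were 11.1% of 18 members and 45.2%. At 31 and above they were 40% of only 5 members (11.8 to 76.9%) and 57.4%, so that band shows no difference. Of the 96 blocks 80 contained no HNF4A peak, among them 7 of the 12 with 10 or more members. Single peaks made up 35 of the 96, and spans of like size elsewhere were not counted. The number of empty blocks therefore shows no shortage of HNF4A. Together the blocks held 33 HNF4A peaks in 3.73 Mb. On autosomes alone 2.66% of members overlapped HNF4A (1.49 to 4.69%) against 32.4% of the others, and on X and Y 11.5% (6.52 to 19.4%) against 24.5% (18.2 to 32.0%).

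The 22 members with HNF4A fell in 14 blocks, 11 of them on autosomes and 11 on X and Y, and met 19 HNF4A peaks. They were narrower than the remaining members, with a median of 423 against 601 bp, and their median score was 14.5 against 13. The HNF4A peaks they met had scores of 16 to 112 with a median of 20, where the HNF4A peaks met by other FOXA2 peaks had a median of 27. Centres were a median of 90.3 bp apart, against 58.5 bp elsewhere, and 12 of 22 were within 100 bp (54.5%, against 72.8%). Some of the 22 were pairs of neighbours that met the same HNF4A peak. Their centres lay 58 and 441.5 bp, 455 and 483 bp, and 35.5 and 426.5 bp from it. Such pairs were not set apart in either group, so the looser centring may come in part from them.

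Block 12, on chromosome X at 166416754 to 166446812, held 5 of the 22. Its 10 members lie in 30.1 kb with 5 HNF4A peaks, and 19 input regions lie within that span or its 10 kb flanks. An HNF4A peak 1424 bp wide (score 18) spanned the members at 166418785 to 166419190 (score 23) and 166419710 to 166420141 (score 11). Another, 1007 bp wide (score 17), at 166424783 to 166425789, spanned the member at 166425087 to 166425414 and overlapped part of the one at 166425453 to 166425972. The fifth pair was at 166446383 to 166446812 (score 15), with an HNF4A peak of score 18 centred 23 bp away. Chromosome Y gave 4 more, with FOXA2 scores of 12, 14, 23 and 35. The one with a score of 23, at 2850500 to 2850902, met an HNF4A peak of score 26. The median score was 23 over all HNF4A peaks and 15 over all FOXA2 peaks. In block 3 on chromosome 1, an HNF4A peak of score 112 was met by a pair of FOXA2 peaks that lie 34 bp apart. These were 90156578 to 90156972 (score 16) and 90157006 to 90157543 (score 17). Besides the peaks on chromosomes 7, X and Y above, the fifth highest FOXA2 score among the 22 was 17, held by that second peak and by chromosome 5 at 33068737 to 33069194 and chromosome 6 at 97303428 to 97303741.

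The profile did not end at 10 kb. FOXA2 peaks 10 to 20 kb from input (88 peaks) had a median width of 564 bp, a median score of 12 and an HNF4A overlap of 3.41% (1.17 to 9.55%), much like members 5 to 10 kb away at 536 bp, 12 and 2.35%. At 20 to 50 kb (109 peaks) these were 487 bp, 12 and 12.8%, and at 50 to 100 kb (100 peaks) 427 bp, 13 and 14%. From 100 kb to 1 Mb (1216 peaks) they were 365 bp, 15 and 32.7% (30.1 to 35.4%), close to the 362 bp, 16 and 33.1% (32.0 to 34.2%) of the 7315 peaks farther out. The 297 peaks at 10 to 100 kb had a median score of 12, and 11.8% exceeded 1 kb, against 0.434% of the 8531 peaks beyond 100 kb. The 37 non-member peaks inside the blocks had a median width of 568 bp, a median score of 12 and 1 HNF4A overlap. Inside the limit there was no steady trend towards input. Median width was 497 bp within 0.2 kb of input, 658 bp at 2 to 5 kb and 536 bp at 5 to 10 kb. HNF4A overlap was 1.75% within 0.2 kb and 10.1% at 0.5 to 1 kb. The limit of the rule thus cuts through a zone that is graded outwards, and the other FOXA2 peaks include some with values like those of members.

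**Figure D4:**
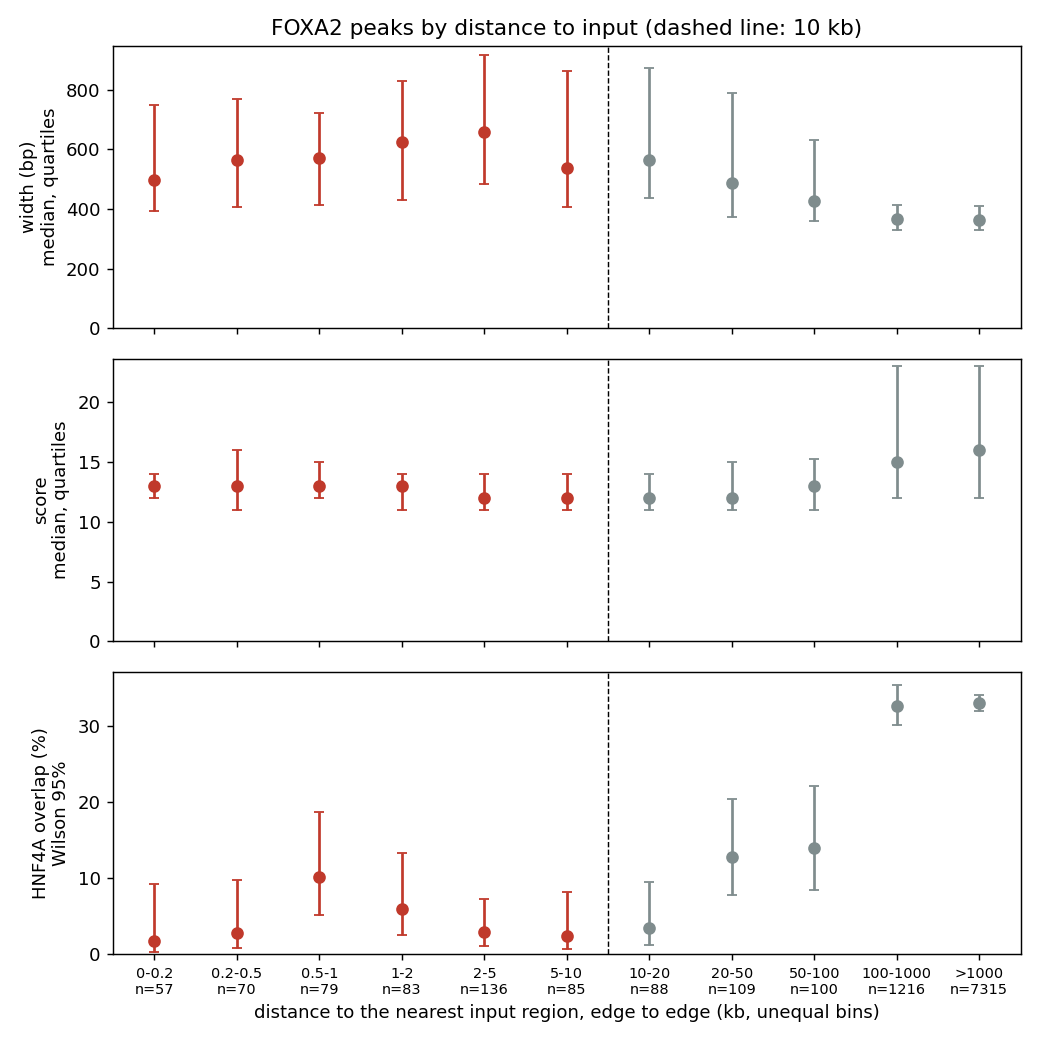
FOXA2 peaks by distance to the nearest input region in kb, in unequal bins with their n: width in bp and score (median with quartiles) and HNF4A overlap in percent (Wilson interval); red bins are within 10 kb. Width falls from 564 bp at 10 to 20 kb to 365 bp at 100 kb to 1 Mb, while HNF4A overlap rises from 3.41% to 32.7%.

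The input regions beside FOXA2 peaks were the weaker ones of the input list. Of 1263 input regions 764, or 60.5%, had a FOXA2 peak within 10 kb, and 293 of them were the nearest one to some member. Their median score was 15 (quartiles 13 and 19) against 19 (14 and 34) for the 499 without, and their median width was 655 against 530 bp. The share with a FOXA2 peak beside them was 74.7% (70.1 to 78.9%) at input scores of 12 to 13, 66.7% at 14 to 16, 61.2% at 17 to 22, 46.8% at 23 to 49 and 13.7% (8.17 to 22%) at 50 and above. None of the 10 highest input regions, and 1 of the 20 highest, had a FOXA2 peak within 10 kb.

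This decline rested in part on chromosomes 9 and 11. A run of 35 input regions on chromosome 9 at 2999923 to 3038419 (median score 66) and one of 38 on chromosome 11 at 3000282 to 3100044 (median score 46) had no FOXA2 peak within 10 kb of any region. Without these chromosomes the share was 75.5% at scores of 12 to 13, 53.6% at 23 to 49 and 25% (15.2 to 38.2%) at 50 and above, so it still went down. At a like distance from the chromosome's first base, block 10 on chromosome 17 had 13 members beside its 10 input regions.

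**Figure D5:**
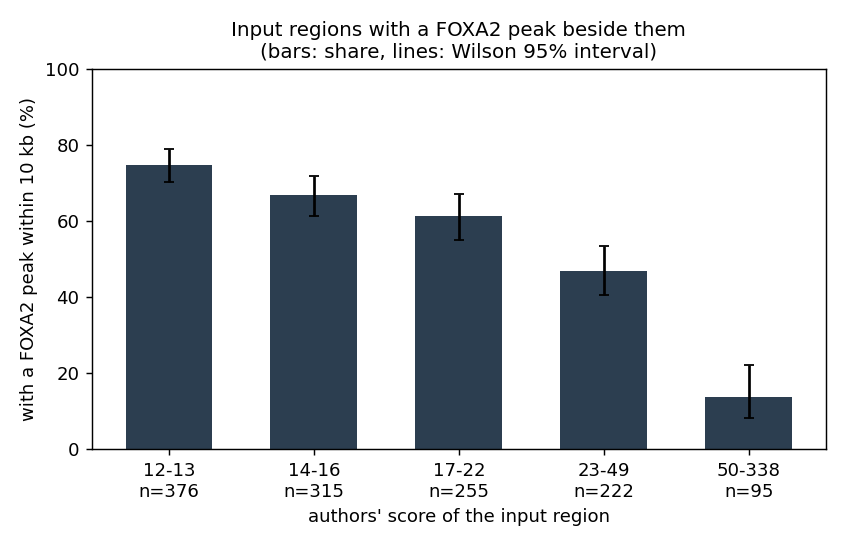
Share of input regions that have a FOXA2 peak within 10 kb, in percent with its Wilson interval, by band of the authors' input score, with n under each band. The share goes from 74.7% at scores of 12 to 13 down to 13.7% at 50 and above.

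Crowded input regions had FOXA2 peaks beside them more often than lone ones. This share counts input regions, and 1 FOXA2 peak can lie within 10 kb of many regions of a run. Input regions with no other within 100 kb numbered 175, and 36 of them, 20.6% (15.2 to 27.2%), had a FOXA2 peak within 10 kb. The share was 53.4% for runs of 2 to 4 regions, 57.4% for runs of 5 to 9 and 69.9% (66.7 to 72.8%) for the 869 regions in 24 runs of 10 or more. Members nearest to those 24 runs numbered 321, 62.9% of the total, and 20 of the runs had at least 1. Members nearest to the 175 lone regions numbered 64. Counted as nearest members per input region, the largest runs and the lone regions were thus much the same. In between, 60 members were nearest to the 118 regions in runs of 2 to 4, and 65 to the 101 in runs of 5 to 9. A run of 16 and a run of 15 input regions on chromosome X, at 120759316 to 120780653 and 120112947 to 120130243, had none, although block 8 lies between them. The score of a member was hardly related to that of its nearest input region, with a Spearman rho of 0.11 over 510 peaks that share 293 input regions.

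HNF4A peaks within 10 kb of input numbered 57 of 11703, and 30 of them lay inside the blocks. They made up 9 of 10 HNF4A peaks on chromosome Y, 11 of 132 on X and 3 of 3 mitochondrial ones. The median width of the 57 was 472 bp against 430 bp for all HNF4A peaks, and their median score was 21 against 23. Scores and widths of the lists come from libraries of unknown depth, so the difference in number between the factors cannot be told apart from a difference in depth or threshold.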

How the data were processed

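The authors deposited 1 headerless list of regions per library (FOXA2, HNF4A, input), each line with chromosome, start, end and a whole-number value. This score, as deposited, is not defined by any source, and medians of score were compared within a list only. Scores of different lists are printed side by side in places, but no common scale is known for them. The rank correlation between scores of members and of their nearest input regions uses order only. Per the submitters' processing notes the genome build was mm9. The aligner, the caller, its threshold, the library depth and any removal of input regions were not given in the sources used here. Positions were read as 1-based with both ends included. Chromosome prefixes were removed and a closing line without a region was skipped. Distances are edge to edge, and an overlap is at least 1 bp. The reference tables are of another build, so no gene, sequence or annotation was assigned. With 1 library per group, values are described by medians, quartiles, counts and 95% Wilson intervals; no test was run. The distance and block routines were tested on simulated intervals. Neighbouring peaks are not independent, so the intervals are too narrow. The members and lists were chosen with earlier results of these data known. Named regions are the 10 fullest blocks with their highest member and input region, the 10 highest (12 with ties) and 5 nearest members, those around 10 kb, and the 5 highest of the members with HNF4A; other named positions were chosen after their values were seen. Alternatives in distance, score, gap, overlap and chromosomes were tried. Scripts ran in Python 3.11.15 with matplotlib 3.10.9, pandas 2.3.3, scipy 1.17.1 and numpy 2.4.6.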

Additional observations from a re-analysis of the deposited data

How the results depend on the processing

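Of 79 recomputed values 66 stayed within 1.5 times (counts) or within the counting interval (medians and shares) of the value reported, and in these alternatives members stayed lower in score, wider and less often shared than the others. The count of members depends on the distance and on the input list: 206 FOXA2 peaks lay within 1 kb of input, and 278 within 10 kb of an input region at or above the median input score. At 1 kb the median widths were 557.5 bp for members and 366 bp for the others. With the stronger input regions alone members had a median width of 547.5 bp, and 22.7% of them were on X and Y. Blocks joined at gaps of 50 kb or less put 45.1% of members in the 10 fullest. Without peaks at the lowest FOXA2 score the others had a median score of 17 and an HNF4A overlap of 34.4%. That overlap was 31.3% when 50% of a FOXA2 peak had to be covered, and 35.8% when an HNF4A peak within 1 kb sufficed. On autosomes 2.66% of members overlapped HNF4A, and input regions beside FOXA2 had a median width of 698 bp. Leaving out the fullest block moved none of the values computed without it beyond its interval. The causes were not tested. Each library stands alone and its depth is unknown, so a peak missing from a list does not show that the factor was absent.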
